A study of Mus musculus with 6 samples.

Results

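The genes described are 8 of the 12625 measured in C2C12 myotubes: the cytokine receptor subunits Il6st, Osmr, Lifr and Il4ra, the SOCS genes Socs2 and Socs3, and the C/EBP transcription factor genes Cebpb and Cebpd. They were taken as a fixed list of symbols, and all 8 were found in the count table. C2C12 cells are an established line of mouse myoblasts, which fuse in culture to form myotubes with many nuclei. At day 5 of differentiation, 3 samples labelled Control received vehicle and 3 received recombinant mouse RANKL at 100 ng per ml for 72 h. No genetic change is named in the labels for either group. All libraries come from this 1 cell line, the labels say that RNA isolation and sequencing were done together, and they do not say whether replicates were separate cultures, so the p-values rest on the spread among these samples alone, and that spread may be technical. The comparison asks what RANKL, the ligand of the receptor RANK and a member of the TNF family, does to cultured myotubes.

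Il6st encodes gp130, the signalling subunit shared by the receptors of the IL-6 family of cytokines. The partner subunits OSMR and LIFR join gp130 to bind oncostatin M and leukaemia inhibitory factor, and IL-4 receptor alpha, which belongs to another receptor family, pairs with the common gamma chain or with IL-13 receptor alpha 1. Bound receptors activate JAK kinases, which phosphorylate STAT factors. SOCS proteins are brakes induced by this signalling: SOCS3 binds gp130 and JAKs, whereas SOCS2 is best known for restraining growth hormone signalling. C/EBP beta and delta are basic leucine zipper factors of the acute phase response, and cytokines of the IL-6 family are known regulators of muscle cell growth and wasting.

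The libraries held 32732604 to 39677999 counts each, and every one of the 8 genes had at least 332 counts in each library. The labelled cell type was checked against its markers. Of 12 myotube markers 10 were measured, at a summed 26426 to 28971 counts per 1000000 (CPM) in vehicle and 24733 to 25336 CPM in RANKL libraries. By edgeR's test at an adjusted p under 0.05, 5 of the 10 were lower under RANKL, against 7.5% of all genes. The 5 were Myh3, Actn2, Acta1, Ryr1 and Myh8, with changes of -8.72% to -21.3%. Myog, Ckm, Mylpf and Tnnt3 were not called, with log2 fold changes of 0.01 to 0.05. Ttn, with overlapping groups, was not called either (-0.37). Of 6 markers of undifferentiated or cycling myoblasts all were measured, at a summed 92.8 to 102 CPM in vehicle and 124 to 146 CPM in RANKL libraries. The same test called 4 of the 6 higher, against 5.35% of all genes. The 4 were the cell cycle genes Mki67, Top2a, Cdk1 and Ccnb1. Pax7 (log2 fold change -0.31, edgeR adjusted p = 0.444) and Myf5 (0.14, adjusted p = 0.229) were not called. Of 7 macrophage markers 3 were measured, at 4.66 to 5.31 CPM in vehicle and 5.82 to 6.95 CPM under RANKL. Of the 3 edgeR called 0, while 1 had an unadjusted p under 0.05, as did 3432 of all 12625 genes. Of 4 endothelial markers 1, Tek, was measured, and it was not called. Adgre1, Csf1r, Ptprc and Lyz2 and all 5 osteoclast and 4 adipocyte markers were not among the gene symbols of the count table. The part of these shifts in the results below was not tested.

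Sequence ahead of a RefSeq start is shown for 3 of the genes that rose, so that it can be read beside the values. RefSeq promoters (build GRCm38.p6) matched 6 of the 8 symbols, with 7 windows because Lifr has more than 1 start, and Socs2 and Cebpd had no match. The 250 bases before each start were searched on both strands for the STAT motif TTCNNNGAA, the STAT6 motif (TTC and GAA with 4 bases between), the C/EBP motif TTGCNNAA, the NF-kB consensus and the TATA motif TATAAA. The 3 windows printed are those of called genes in which the GENCODE annotation places no exon of a coding transcript of the same gene. Exons of other genes in these windows were not looked for. They are Socs3 at chr11:117969367-117969616 on the minus strand, Cebpb at chr2:167688665-167688914 on the plus strand and Il6st at chr13:112463820-112464069 on the plus strand, each written 5′ to 3′ along the gene, with a motif match in capitals.
Socs3: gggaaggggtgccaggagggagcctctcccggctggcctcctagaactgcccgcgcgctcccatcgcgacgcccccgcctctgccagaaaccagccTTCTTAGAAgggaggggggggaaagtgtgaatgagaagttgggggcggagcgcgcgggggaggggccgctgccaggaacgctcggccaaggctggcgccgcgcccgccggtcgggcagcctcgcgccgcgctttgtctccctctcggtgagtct
Cebpb: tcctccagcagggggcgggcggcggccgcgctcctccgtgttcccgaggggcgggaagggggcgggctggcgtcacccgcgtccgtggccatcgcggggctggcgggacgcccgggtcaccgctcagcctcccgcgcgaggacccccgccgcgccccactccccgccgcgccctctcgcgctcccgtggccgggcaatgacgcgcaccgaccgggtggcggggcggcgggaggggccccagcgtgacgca
Il6st: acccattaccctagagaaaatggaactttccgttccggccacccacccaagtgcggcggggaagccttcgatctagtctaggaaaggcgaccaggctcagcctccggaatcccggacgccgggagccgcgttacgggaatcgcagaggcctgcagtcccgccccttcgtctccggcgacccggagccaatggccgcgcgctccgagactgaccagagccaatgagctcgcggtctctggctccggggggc

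The capitals in Socs3 mark a STAT motif match, TTCTTAGAA, from base -154 to base -146 relative to the RefSeq start. For Socs3 the annotations place starts differently: its window lies inside the GENCODE gene, 77 of its bases are exon of a noncoding transcript, and the coding transcript starts 180 bases downstream of the RefSeq start. The Cebpb and Il6st windows end at the base before the GENCODE start. The Socs3 match was the only match to any of the 5 motifs in the 7 windows. Among all 32851 promoter windows of the same length, 7.02% hold the STAT motif, 5.85% the STAT6 motif, 9.56% the C/EBP motif, 3.90% the NF-kB consensus and 12.4% the TATA motif. A match is a string of letters and no measured binding site, and the windows do not cover other regulatory sequence. The printed windows were rich in G and C, at 71.6% for Socs3, 81.6% for Cebpb and 66.0% for Il6st, against a median of 52.4% over all promoters.

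Of the 8 genes 6 rose under RANKL (Il6st, Osmr, Il4ra, Socs3, Cebpb and Cebpd) and 0 fell by edgeR's quasi-likelihood test at an adjusted p under 0.05, while Lifr and Socs2 did not pass it. Among all 12625 genes, 5.35% were called higher and 7.5% lower. The median log2 fold change was 0.20 over the 8 genes and 0.005 over all genes tested, and the changes of the 8 ranged from 0.01 for Lifr to 0.92 for Cebpd. RANKL libraries lay wholly above vehicle libraries in 6 of the 8, namely Il6st, Il4ra, Socs2, Socs3, Cebpb and Cebpd, against 14.9% of all genes, and wholly below in 0 of the 8, against 16.6%. In bulk RNA, more cells of a type and more RNA per cell cannot be told apart. Since the 8 genes were chosen with results of these data known, their count is a description.

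**Figure D1:**
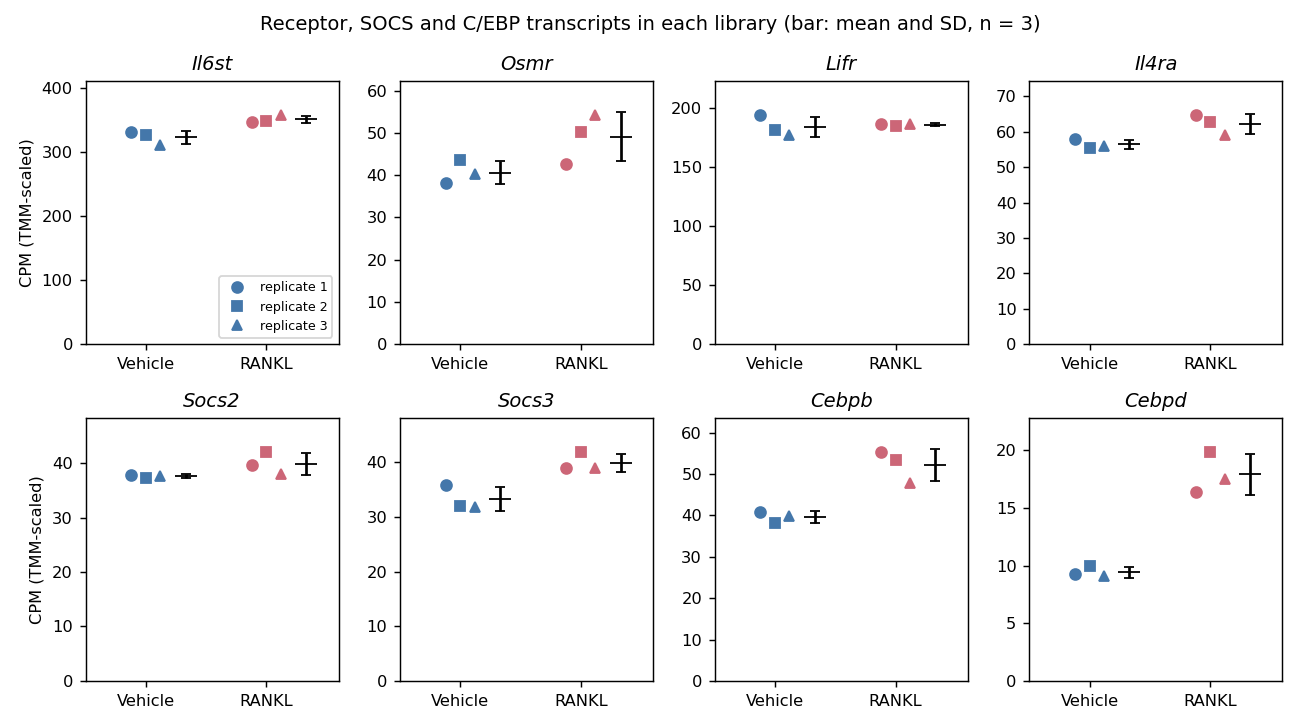
Each panel plots 1 gene, with the 3 vehicle libraries (blue) and the 3 RANKL libraries (red) on the x axis and TMM-scaled CPM on the y axis from 0; marker shapes stand for replicate numbers, and black bars give the mean and SD of 3 libraries. Cebpd moved from 9.07 to 9.98 CPM in vehicle libraries to 16.3 to 19.8 CPM under RANKL, whereas the Lifr groups overlap.

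The calls differed in how they held when libraries were left out. Socs3, Cebpb and Cebpd kept an adjusted p under 0.05 without any 1 of the 6 libraries. Il6st, Osmr and Il4ra did not, and the number of called genes among the 8 was 3 without vehicle replicate 3 or RANKL replicate 2, and up to 5 without another library. Over all genes tested, those called higher also went from 676 to 452 without vehicle replicate 3 and to 468 without RANKL replicate 2.

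Among the receptors, gp130 was the most abundant transcript. Il6st (chromosome 13, 112464070 to 112510086 on mm10, protein-coding) had 332, 327 and 312 CPM in vehicle replicates 1, 2 and 3 and 348, 349 and 358 CPM in RANKL replicates 1, 2 and 3. Every RANKL value exceeded every vehicle value, although the gap between the groups was no wider than the spread among the vehicle libraries. The mean went from 323 ± 10.5 to 351 ± 5.62 CPM (SD, n = 3 in each group), a rise of 8.69% and a log2 fold change of 0.12 ± 0.03 (SE; edgeR adjusted p = 0.0257). Without vehicle replicate 2 or 3 or RANKL replicate 2 or 3 it did not pass, with an adjusted p of 0.0568 to 0.109.

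Osmr, the partner of gp130 in the oncostatin M receptor, lies on chromosome 15 from 6813577 to 6874969. Its vehicle libraries had 38.1, 43.6 and 40.2 CPM and its RANKL libraries 42.7, 50.3 and 54.2 CPM. RANKL replicate 1 lay below vehicle replicate 2, so the groups overlapped, and the other RANKL libraries lay above every vehicle library. The mean went from 40.6 ± 2.76 to 49.1 ± 5.83 CPM, and the log2 fold change was 0.27 ± 0.07 (95% interval 0.12 to 0.43; edgeR adjusted p = 0.0229). The value ran from 0.20 without RANKL replicate 3 to 0.37 without RANKL replicate 1, and the gene was not called without vehicle replicate 1 or 3 or RANKL replicate 2 or 3.

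Lifr, the subunit for leukaemia inhibitory factor, is the next protein-coding gene after Osmr on chromosome 15 (7090614 to 7197489), 215644 bases away and on the other strand. It had 194, 181 and 177 CPM in vehicle libraries and 187, 184 and 186 CPM under RANKL. All RANKL values fell inside the vehicle range. The log2 fold change was 0.01 ± 0.04, with a 95% interval of -0.06 to 0.09 and an edgeR adjusted p of 0.845. A change of Lifr as large as the fitted change of Osmr lies outside that interval. The log2 ratio of Lifr to Osmr, taken from the authors' log2 values, which were read as log2 RPKM (CPM per kilobase of gene), was 1.08 ± 0.15 in vehicle and 0.83 ± 0.18 in RANKL libraries (SD). That shift was tested by an exact two-sided permutation of the 6 libraries, where 3 against 3 cannot give a p below 0.10, and gave p = 0.20 (Benjamini-Hochberg 0.30 over 6 ratios).

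Il4ra, the alpha chain shared by the receptors for IL-4 and IL-13, lies on chromosome 7 from 125552120 to 125579474. Its vehicle libraries had 57.8, 55.4 and 55.9 CPM and its RANKL libraries 64.6, 62.7 and 59.0 CPM. The groups did not overlap, and RANKL replicate 3 stood nearest to vehicle. The log2 fold change was 0.14 ± 0.04, from 56.4 ± 1.26 to 62.1 ± 2.87 CPM (edgeR adjusted p = 0.0381). It still passed without RANKL replicate 3 but lost its call when any other single library was left out, and DESeq2 gave an adjusted p of 0.0645. Its exons share 571 bases with the antisense gene Gm44876, which was not among the gene symbols of the count table, and strand use in counting is not stated.

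Of the feedback genes, Socs3 rose and Socs2 did not pass. Socs3 (chromosome 11, 117966079 to 117970047), the inhibitor that binds gp130, had 35.7, 32.0 and 31.8 CPM in vehicle libraries and 38.9, 41.8 and 38.9 CPM in RANKL libraries. The groups did not overlap, and vehicle replicate 1 stood nearest to the RANKL libraries. The mean went from 33.2 ± 2.20 to 39.9 ± 1.72 CPM, a 1.20-fold rise (log2 fold change 0.26 ± 0.05, edgeR adjusted p = 0.00472).

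Socs2, on chromosome 10 from 95385362 to 95417180, had 37.9, 37.3 and 37.7 CPM in vehicle libraries and 39.7, 42.0 and 38.1 CPM under RANKL. The vehicle values were close together, and RANKL replicate 3 lay just above them. With a log2 fold change of 0.08 ± 0.05 (95% interval -0.01 to 0.18, edgeR adjusted p = 0.247) the difference did not pass, and it passed in none of the 15 alternative settings. Per length the log2 ratio of Socs2 to Socs3 was 0.20 ± 0.09 in vehicle and 0.02 ± 0.03 in RANKL libraries (SD), with no overlap between the groups and an exact permutation p of 0.10, the smallest 3 against 3 allows (Benjamini-Hochberg 0.20).

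The C/EBP genes moved most. Cebpd (chromosome 16, 15887286 to 15891031), a single-exon coding transcript for an inducible factor of the acute phase response, had 9.26, 9.98 and 9.07 CPM in vehicle libraries and 16.3, 19.8 and 17.5 CPM in RANKL libraries. Even the lowest RANKL library stood well above the highest vehicle library. The mean went from 9.44 ± 0.478 to 17.9 ± 1.78 CPM, 1.90-fold (95% interval 1.68 to 2.14), or a log2 fold change of 0.92 ± 0.08 with an edgeR adjusted p of 4.21e-06. Over the 15 alternatives it lay between 0.85 and 0.99 and passed in all.

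Cebpb (chromosome 2, 167688915 to 167690418), the related factor of the same response, had 40.8, 38.1 and 39.9 CPM in vehicle libraries and 55.3, 53.5 and 47.8 CPM in RANKL libraries. The groups did not overlap, with RANKL replicate 3 the lowest of its group. The mean went from 39.6 ± 1.38 to 52.2 ± 3.93 CPM, 1.32-fold (log2 fold change 0.40 ± 0.05, edgeR adjusted p = 0.000225). Both genes share exon bases with a gene on the opposite strand, 562 for Cebpd with Spidr and 312 for Cebpb with Tmem189. Neither partner was called: Spidr had a log2 fold change of 0.09 (adjusted p = 0.606) and Tmem189 of 0.04 (adjusted p = 0.71). The log2 ratio of Cebpb to Cebpd per length was 2.64 ± 0.12 in vehicle and 2.12 ± 0.18 in RANKL libraries (SD), a ratio of 6.22 against 4.34. These groups did not overlap either, with an exact permutation p of 0.10, the smallest possible (Benjamini-Hochberg 0.20).

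**Figure D2:**
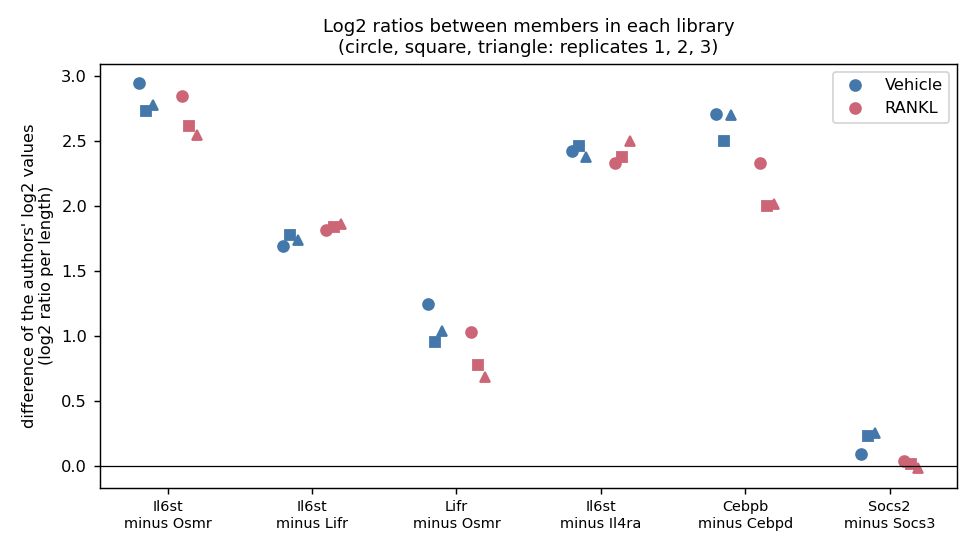
The y axis gives the difference of the authors' log2 values between 2 genes, a log2 ratio per length, for the 6 gene pairs on the x axis; each point is 1 library, blue for vehicle and red for RANKL, with replicate numbers as shapes. Cebpb minus Cebpd and Socs2 minus Socs3 were lower in every RANKL library, and Il6st minus Il4ra overlapped between the groups (2.42 against 2.40).

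Within the RANKL group the genes did not share 1 order of libraries. RANKL replicate 1 was the lowest of its group for Il6st, Osmr and Cebpd and the highest for Lifr, Il4ra and Cebpb. RANKL replicate 2 was the highest for Socs2, Socs3 and Cebpd.

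Levels were compared between genes only per length, on the authors' log2 values. In vehicle libraries the order was Il6st (5.89 ± 0.05, SD), Cebpb (4.71 ± 0.05), Lifr (4.15 ± 0.07), Socs2 (3.80 ± 0.01), Socs3 (3.61 ± 0.09), Il4ra (3.47 ± 0.03), Osmr (3.07 ± 0.10) and Cebpd (2.07 ± 0.07). No neighbours in that order overlapped between libraries. Under RANKL the order by mean was the same, but Socs2 (3.89 ± 0.07) and Socs3 (3.87 ± 0.06) overlapped and did not differ beyond their spread. The gene lengths behind these values are not stated, and they set the distance between genes.
Per length, gp130 transcripts stood 7.06 times above Osmr and 3.33 times above Lifr in vehicle libraries, and 6.38 and 3.58 times above them under RANKL. The log2 ratio of Il6st to Lifr did not overlap between the groups (exact permutation p = 0.10, Benjamini-Hochberg 0.20), while that of Il6st to Osmr did (p = 0.30, Benjamini-Hochberg 0.36).

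**Figure D3:**
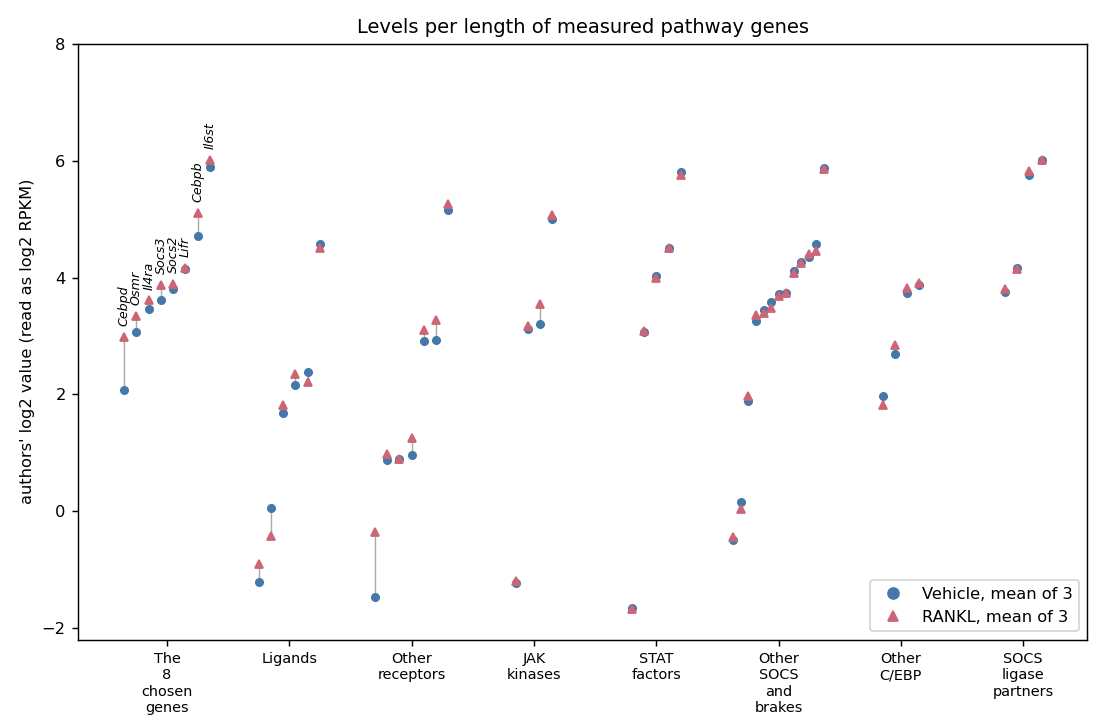
The y axis gives the authors' log2 value, read as log2 RPKM, and the x axis groups measured genes by role, ordered by vehicle level within each role; blue circles are vehicle means and red triangles RANKL means of 3 libraries, joined by a grey line. Cebpd shows the widest gap among the 8 chosen genes, from 2.07 to 2.99, and Lifr the narrowest.

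The other genes of the pathway were taken from lists by role, 90 genes of which 70 were measured. Of the 70, 16 were called higher (22.9%) and 1 lower (1.43%), beside 5.35% and 7.5% of all genes tested, and their median log2 fold change was 0.05. These lists were drawn up with earlier results of the data known, and they hold Saa3, C3 and other genes already seen to rise.

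Of 13 ligands 6 were measured, and edgeR called 0. Of the 6, 2 had an unadjusted p under 0.05, as did 3432 of all 12625 genes. The median log2 fold change of the 6 was 0.04. Lif, the ligand of the LIFR and gp130 pair, had 19.3 ± 0.938 CPM in vehicle and 22.1 ± 1.62 CPM in RANKL libraries (log2 fold change 0.19 ± 0.06, edgeR adjusted p = 0.0603). It passed with total count scaling, with the replicate number as a block and without RANKL replicate 3 (adjusted p of 0.0305, 0.0382 and 0.0196). Il11, another ligand that signals through gp130, had 2.03 ± 0.236 CPM in vehicle and 1.48 ± 0.488 CPM in RANKL libraries, with overlapping groups (log2 fold change -0.47 ± 0.21, edgeR adjusted p = 0.168). Il6, Osm and 5 other ligands were not among the gene symbols of the count table.

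Of 10 other receptor genes 7 were measured and 3 rose, beside 5.35% of all genes tested, with a median of 0.18. Il13ra1, which pairs with the IL-4 receptor alpha chain, rose from 28.4 ± 1.18 to 36.1 ± 2.69 CPM (log2 change 0.34 ± 0.06, edgeR adjusted p = 0.00128). Il13ra2, a decoy receptor for IL-13, rose from 0.774 ± 0.111 to 1.72 ± 0.124 CPM (log2 change 1.14 ± 0.19, adjusted p = 0.00136), on 85 vehicle and 181 RANKL counts in all, a ratio of 2.22 with an exact binomial 95% interval of 1.70 to 2.90 that covers counting error only. Il6ra, the IL-6 binding subunit that works with gp130, went from 6.45 ± 0.362 to 7.89 ± 0.616 CPM (0.29 ± 0.09, adjusted p = 0.0477), and it was not called once any 1 library was left out, by DESeq2 or by limma-voom.

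Of the 4 JAK kinases Jak2, a kinase that binds gp130, rose from 46.6 ± 0.329 to 58.9 ± 3.90 CPM (log2 change 0.34 ± 0.05, edgeR adjusted p = 0.000322), and this call held in all 15 alternatives. The other 3 did not pass, with log2 fold changes of 0.07 for Jak1, 0.05 for Tyk2 and 0.04 for Jak3. Among the STAT factor genes given here, Stat2, Stat3, Stat5a, Stat5b and Stat6 did not pass, with log2 fold changes of -0.04 to 0.02. None had an unadjusted p under 0.05, a level that 3432 of all 12625 genes reached. Stat3, the main STAT downstream of gp130, had 250.5 ± 10.1 CPM in vehicle and 243 ± 3.02 CPM under RANKL, a log2 fold change of -0.04 ± 0.03 (95% interval -0.12 to 0.03, adjusted p = 0.463).

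Other SOCS genes and brakes showed no calls: of 14 listed 13 were measured and edgeR called 0. Of the 13, 2 had an unadjusted p under 0.05, as did 3432 of all 12625 genes. The log2 fold changes of the 13 ran from -0.12 to 0.11 with a median of -0.02. Pias4, an inhibitor of activated STATs, had the smallest p, at -0.12 ± 0.04 (adjusted p = 0.0915). Socs1, the other SOCS that acts on JAKs, was low, at 1.44 CPM in vehicle and 1.33 CPM in RANKL libraries. Among 6 partners of SOCS in ubiquitin ligases 4 were measured, of which edgeR called 0 and none reached an unadjusted p of 0.05; Rbx1, the RING subunit, stood at 0.06 ± 0.03 (adjusted p = 0.316).

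Of 5 other C/EBP genes 4 were measured and 1 rose, beside 5.35% of all genes tested. Cebpg went from 30.4 ± 1.27 to 33.8 ± 0.385 CPM (log2 change 0.15 ± 0.05, edgeR adjusted p = 0.0397), and it was not called by DESeq2 or once any 1 library was left out. Cebpa, the factor of adipocytes and liver, had 10.3 CPM in vehicle and 9.23 CPM under RANKL (-0.16 ± 0.08, adjusted p = 0.174).

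**Figure D4:**
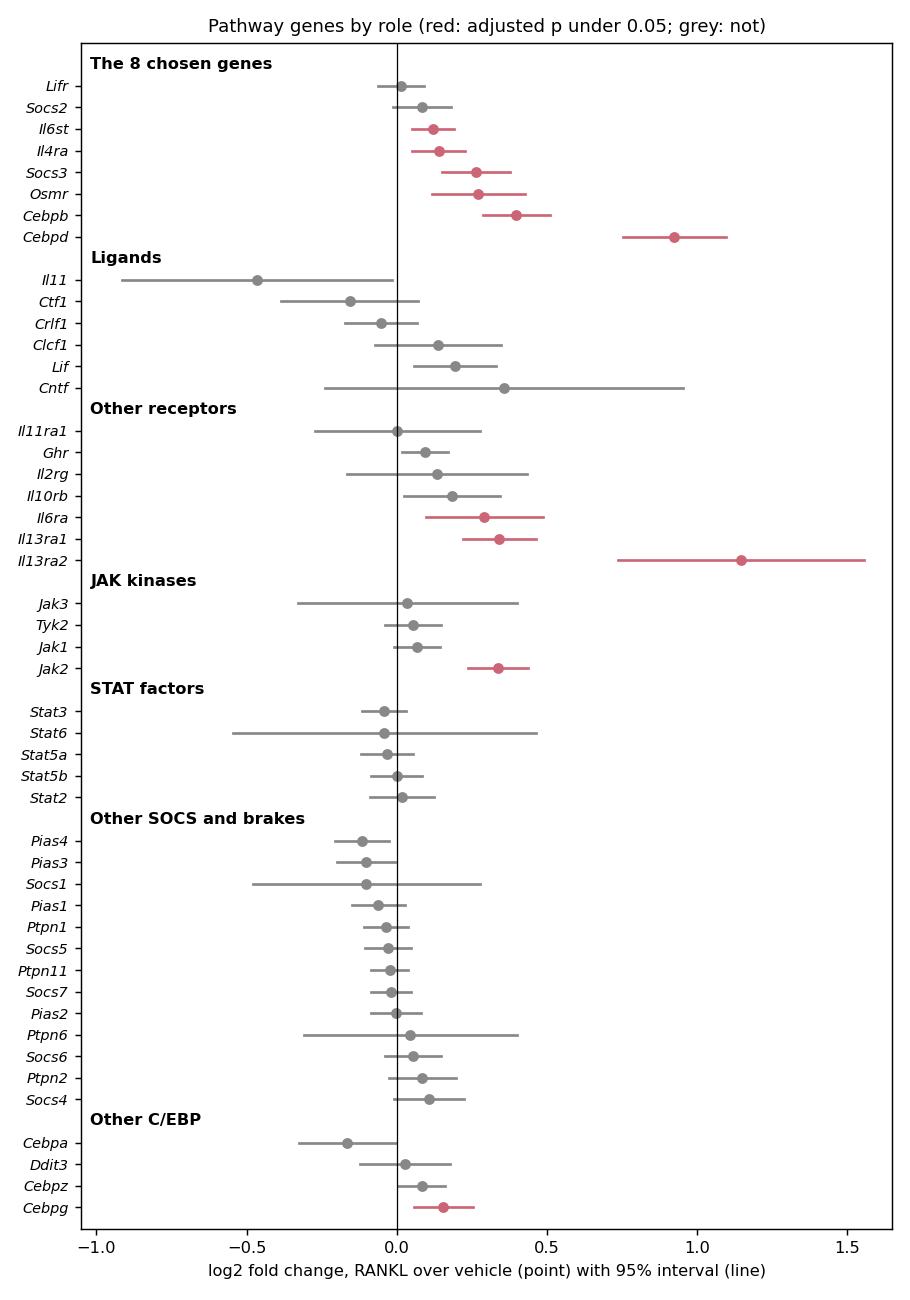
Points give the log2 fold change of RANKL over vehicle (x axis) and lines its 95% interval for measured genes of 7 roles (rows); red genes passed an edgeR adjusted p under 0.05. Cebpd (0.92) and Il13ra2 (1.14) lie farthest to the right, and no gene of these roles passed on the lower side.

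Of 32 listed targets of STAT3 and C/EBP factors 27 were measured. Of the 27, 11 rose (40.7%) and 1 fell (3.70%), beside 5.35% and 7.5% of all genes tested. The median log2 fold change of the 27 was 0.11. This list was drawn up with the rise of Saa3, C3 and other genes already known. The 6 with the smallest p were C3, Saa3, Tnfrsf1b, Irf1, Bcl3 and Mt2. Several of these are also known NF-kB targets, so the list is not specific to gp130. Irf1, an interferon-response factor, rose from 27.8 ± 1.02 to 42.3 ± 0.712 CPM, Tnfrsf1b, a TNF receptor, from 32.4 ± 1.42 to 52.2 ± 2.98 CPM, and Bcl3, an IkB-family cofactor, from 2.38 ± 0.133 to 6.86 ± 1.03 CPM. Mt2, a metallothionein, rose from 32.4 ± 1.61 to 51.5 ± 8.25 CPM, while its neighbour and paralog Mt1 had a log2 fold change of 0.01 ± 0.06. C3 and Saa3, acute phase genes, went from 11 and 3 counts over the vehicle libraries to 1082 and 826, ratios of 102 (exact binomial 95% interval 57.0 to 206) and 286 (97.7 to 1392). Saa3 has close paralogs, and how shared reads were counted is not stated.

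The other 5 targets that rose, named after their values were seen, were Lbp (log2 fold change 1.01), Pim1 (0.25), Junb (0.19), Vegfa (0.14) and Timp1 (0.11). Lbp and Pim1 kept their call without any 1 library. Junb and Vegfa lost it without vehicle replicate 2 or 3 or RANKL replicate 2, and Timp1 without any library but RANKL replicate 3. The gene that fell, also named after its values were seen, was Klf4, a zinc finger factor, at -0.11 ± 0.03 (adjusted p = 0.0391); it was called in 7 of 15 alternatives. Myc, an early target of STAT3, had a log2 fold change of 0.21 ± 0.07 and did not pass (adjusted p = 0.0718).

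As a description, each of the 8 genes was set beside the 2 genes whose log2 CPM over the 6 libraries gave the highest Pearson r out of those that averaged 10 CPM or more. For Cebpd these were Cx3cl1 and Birc2 (r of 0.998 each), and for Cebpb Ankrd1 (0.999) and Map1lc3b (0.997). Osmr was closest to Anp32e (0.996) and Mtpn (0.995), Il6st to Cebpzos (0.992) and Xpo1 (0.990), and Lifr to Ikbkb (0.998) and Atxn1 (0.985). For Il4ra they were Dennd2a (0.992) and Suclg1 (0.990), for Socs3 Gorab (0.991) and Gpatch4 (0.987), and for Socs2 Wdr61 (0.986) and Unc119b (0.984). Each value rests on 6 libraries, and r was above 0.9 for 365 of 8992 genes with Cebpd and for 40 with Lifr. The points also share libraries, scaling and the group difference.

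**Figure D5:**
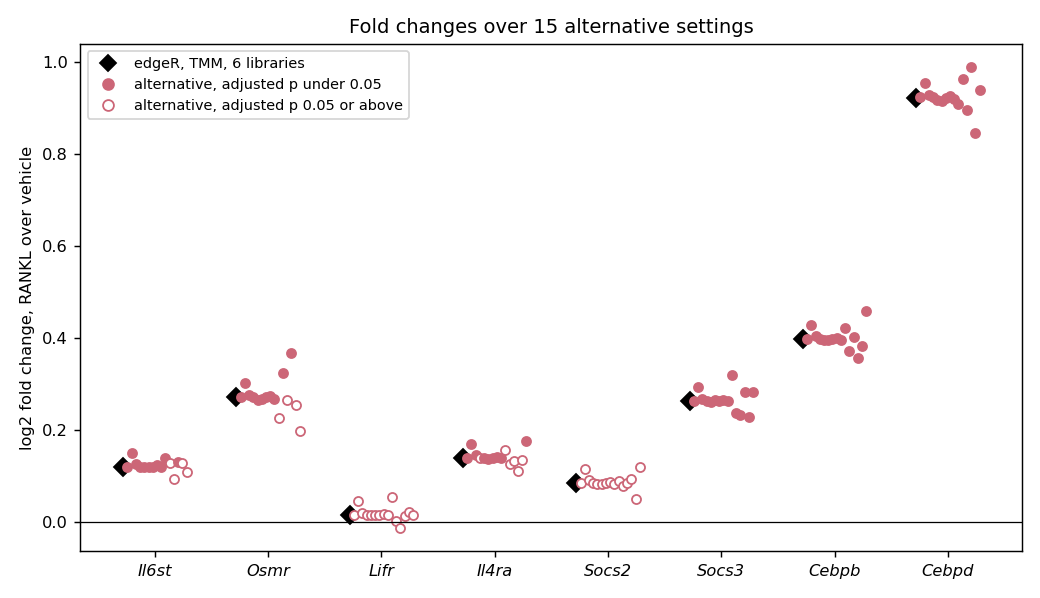
The y axis gives the log2 fold change of each of the 8 genes (x axis), with a black diamond for edgeR with TMM scaling on all 6 libraries and a circle for each of 15 alternatives, filled where the adjusted p was under 0.05. All circles of Socs3, Cebpb and Cebpd are filled, those of Lifr and Socs2 are open, and Il6st, Osmr and Il4ra show both.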

How the data were processed

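RNA of 6 libraries was read in paired ends of 75 bases, per the labels' protocols. The submitters' processing notes list FastQC, STAR, edgeR and mm10, with neither versions nor roles; the read counter, annotation and strand setting were not given in the sources used here, so reads shared by overlapping genes are uncertain. The authors deposited whole-number counts for 12625 gene symbols, and 4708 lines with no gene and no value were left out. The authors also deposited log2 values whose header names no unit. They follow log2 CPM with TMM scaling less a constant per gene (median deviation 3.6e-05 over 8993 genes), so they were read as log2 RPKM.

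Counts were tested over the whole table with edgeR 4.0.16 in R 4.3.3 (TMM, filterByExpr, which removed 0 genes, quasi-likelihood F test, Benjamini-Hochberg), with the SE taken as the log2 fold change over the square root of F. CPM use TMM-scaled totals. Chi-square per gene between libraries of 1 group was 3.39 to 9.52, above sampling noise, and all 6 were kept. Alternatives used DESeq2 1.42.0, limma 3.58.1 (voom and trend), other scalings and filters, a replicate block and each library left out. The steps were tested on simulated data. Count ratios carry intervals for counting error only.

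The 8 genes and all lists were chosen with earlier results of these data known. The rule named the 8 genes, each called gene of the role lists (or the smallest p), and up to 6 called targets. Stat3, the remaining called targets and the other uncalled genes given by name were added after values were seen. Positions come from GENCODE M21 (mm10) and promoters from RefSeq on GRCm38.p6, the same build. Of the listed genes 1 is not reported here and is left out of the list counts. Overlaps were sought for the genes named by the rule, Stat3 and the remaining called targets. Cebpg overlaps an exon of a same-strand gene. Stat3, Il4ra, Cebpb, Cebpd, Il6ra, Cebpg, Irf1, Bcl3, Mt2, Junb and Pim1 overlap an exon of an opposite-strand gene.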

Additional observations from a re-analysis of the deposited data

How the results depend on the processing

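Of the 8 genes 6 were called higher under every other scaling, filter and limma fit and with the replicate number as a block, and 5 by DESeq2, where Il4ra (log2 fold change 0.14) did not pass. Leaving out 1 library gave 3 to 5 higher and 0 lower, beside 373 to 746 higher and 537 to 880 lower of all genes. Over those fits the log2 fold change lay between 0.094 and 0.14 for Il6st, 0.20 and 0.37 for Osmr and 0.11 and 0.18 for Il4ra, and between -0.013 and 0.054 for Lifr, whose sign turned without vehicle replicate 3. Without 1 library, other pathway genes gave 11 to 17 higher and 0 to 1 lower, with 11 without vehicle replicate 2 or 3 or RANKL replicate 2, while total count scaling gave 20 higher and DESeq2 13. The single lower gene, Klf4, was not called with total count scaling, by DESeq2 or with the replicate block (0 lower each), nor without 5 of the 6 libraries. Causes were not tested.

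Total count scaling called 1070 genes higher and 626 lower of all tested, against 676 and 947 (63.1% against 41.7% of calls higher), and shifted the median log2 fold change by 0.03. Over all genes, 426 were higher and 561 lower when vehicle replicate 1 was left out, 373 and 537 for vehicle replicate 2, and 596 lower for RANKL replicate 2. The labels do not say that replicate numbers pair samples. Same-numbered libraries deviated together only weakly (r of 0.07, 0.04 and 0.02), though each library correlated best with its own number. For RANKL replicate 3 this was nearly a tie, with r of 0.01817 for vehicle replicate 3 and 0.01813 for vehicle replicate 2. The replicate block gave 6 of the 8 genes and 17 other pathway genes higher, and 730 higher and 1008 lower of all genes; among the listed genes it ended the calls of Klf4 and Timp1 and gave calls to Lif and Cp. The 95% interval of Socs2, -0.01 to 0.18, holds both 0 and the fitted change of Il6st.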
